A study of Mus musculus with 8 samples.

Results

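The p53 gene set described here was Trp53 itself and 8 of its target genes, namely Mdm2, Cdkn1a, Bax, Bbc3, Pmaip1, Zmat3, Phlda3 and Trp53inp1. They were chosen by name from what is known of the pathway and not from their values, though with earlier results of these data known. All 9 were found among the 16119 genes of the deposited count table, and all 9 passed the filter on low counts, as did 15837 of the 16119. RNA was sequenced from common dendritic cell progenitors (CDPs, sorted as Lin-, c-kit int, Sca1 lo, CD115+ and Flt3+), the bone marrow cells that give rise to conventional and plasmacytoid dendritic cells. The HFD group were male C57BL/6 mice (C57BL/6J in the methods) on a high-fat diet with 60 kcal% fat for 16 weeks, called DIO in the labels. The CF group were control mice of the same strain, matched for age, on chow with 10 kcal% fat, and no allele or agent beyond the diet is given for either group. Each group had 4 libraries from about 50000 cells each. Whether a replicate was 1 mouse or a pool is not given in the sources used here, so p-values measure the spread between these samples, which may be technical in part.

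p53 is a transcription factor that is held at a low level by the ubiquitin ligase Mdm2, which is itself a p53 target. DNA damage, oncogene activity or oxidative stress frees p53 from Mdm2, mainly at the level of the protein, and p53 then raises the transcription of genes for cell cycle arrest, DNA repair and apoptosis. In the bone marrow p53 restrains the cycling of stem and progenitor cells and removes damaged ones. The mRNA of its targets is therefore read as a measure of p53 activity, while Trp53 mRNA reports only the supply. The study asked how HFD changes the proliferation of DC progenitors, and the comparison here asks whether the genes of this pathway differed between the diets. By qRT-PCR scaled to actin, the paper also measured p21 (Cdkn1a) and cyclin G1 (Ccng1) in sorted CDPs. It reported the S-G2/M cyclins, in which it counts cyclin G1, as higher in HFD.

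The HFD libraries held 28203651 to 38969160 counts and the CF libraries 32575696 to 48409689, of which protein-coding genes received between 11819701 and 15164732 in every library. Non-coding genes of at most 200 nt took 8.50% to 13.6% of the counts in HFD and 21.7% to 33.9% in CF, so their share separated the diets, and its part in the differences below was not tested. Levels are given as CPM, the standard scale of a gene's count relative to the total of its library, adjusted by TMM, a method that matches the bulk of genes between libraries, and in such RNA from many cells a smaller share of one cell type and less RNA per cell cannot be told apart. The sort genes Csf1r (CD115), Kit and Ly6a (Sca1) lay at 79.4 to 133, 34.2 to 53.6 and 1.37 to 3.25 CPM over the 8 libraries. Flt3 lay at 88.8 CPM in HFD replicate 1 and at 227 to 378 CPM in the other 7 libraries. HFD replicate 1 also stood apart in RNA of other cells. The summed CPM of 10 neutrophil markers was 19740 in it, 3501, 1228 and 921 in HFD replicates 2 to 4, 1868 in CF replicate 1 and 5714 to 6346 in CF replicates 2 to 4, and the summed CPM of 8 erythroid markers was 399 in it and 75.4 to 122 elsewhere. Of 8 B cell markers, 7 lay higher in HFD and 1, Igll1, lower (log2 fold change -0.32). At an unadjusted p under 0.05 in edgeR 5 of the 8 were higher, beside 510 of all 15837 genes tested. Of the 8, 0 passed the adjusted threshold in edgeR, with sums of 434 to 827 CPM in HFD and 320 to 491 CPM in CF. Of 6 monocyte markers, 5 lay lower in HFD and 1 higher (median log2 fold change -0.34), with sums of 266 to 763 CPM in HFD and 498 to 834 CPM in CF. Of the T and NK cell markers, 4 were tested, with 2 higher and 2 lower in HFD. Their sums were 10.6 to 28.4 CPM in HFD and 13.4 to 22.1 CPM in CF. In both lists 0 genes passed the adjusted threshold in edgeR. Results below are given with and without HFD replicate 1 where it matters.

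The p53 genes did not separate the diets. Of the 9 genes, 0 passed an adjusted p of 0.05 (edgeR quasi-likelihood test, Benjamini-Hochberg over all genes), against 0.423% of all 15837 genes tested. At an unadjusted p under 0.05 there were also 0 of 9, against 8.56% of all genes, and 0 of 9 had non-overlapping CPM in the groups, against 6.16% of all genes. In HFD 7 of the 9 lay higher and 2 lower, beside 9447 higher and 6390 lower of all 15837 genes tested. The median log2 fold change of the 9 was 0.088, beside 0.055 over all genes tested. The differences ran from -0.33 for Pmaip1 to 0.60 for Phlda3, and 7 of the 9 were under 0.3 in size, as were 70.7% of all genes. Their adjusted p in edgeR lay between 0.74 and 0.99. For every gene the 95% interval of the difference held 0, so these data give bounds on a change and do not show that the levels were equal.

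**Figure D1:**
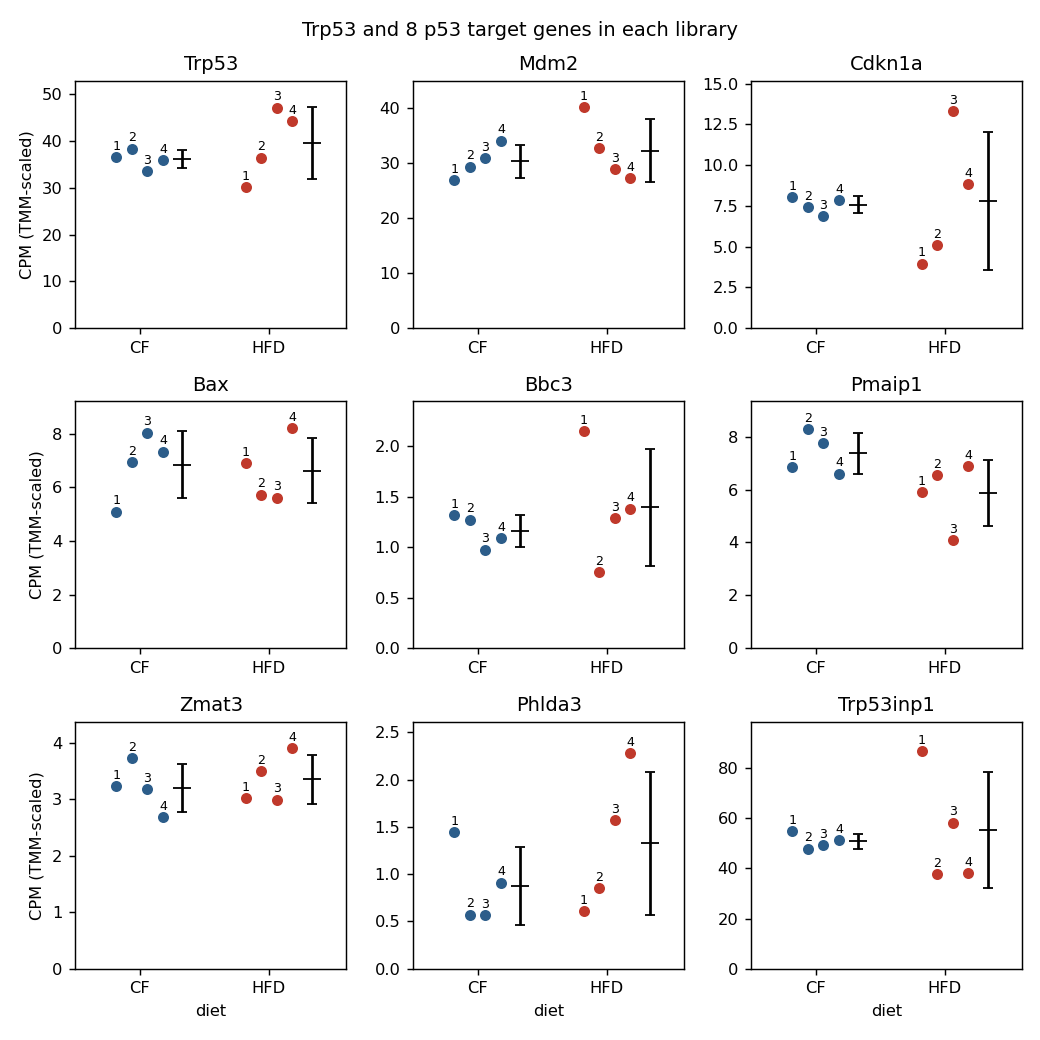
CPM (TMM-scaled) of Trp53 and 8 targets in each library, with points numbered by replicate, 4 for CF (blue) and 4 for HFD (red), and the bar beside them giving the mean ± SD. In all 9 panels the groups overlap, and the HFD points spread more widely than the CF points for Cdkn1a (SD of 4.22 against 0.52 CPM) and Trp53inp1 (SD of 23.02 against 2.96 CPM).

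Trp53 (ENSMUSG00000059552, GRCm38 chr11:69580359-69591873, plus strand) had 30.1, 36.5, 47.2 and 44.2 CPM in HFD replicates 1 to 4 and 36.7, 38.4, 33.7 and 35.9 CPM in CF replicates 1 to 4. The HFD libraries held both the lowest and the highest value, and the narrow CF range lay inside theirs. The means were 39.5 ± 7.71 CPM in HFD and 36.2 ± 1.96 CPM in CF (SD, n = 4 each), a log2 fold change of 0.13 with a 95% interval of -0.20 to 0.46 (SE 0.14, edgeR adjusted p = 0.90). In this fit of all 8 libraries, a rise in Trp53 mRNA beyond 1.37-fold or a fall below 0.87 of the CF level lay outside that interval. Under library size alone the log2 fold change of Trp53 was 0.33 (edgeR adjusted p = 0.44). Counts of 939 to 1822 per library stood behind these values. HFD replicate 1, the library with the most neutrophil marker RNA, had the lowest Trp53, and without it the log2 fold change was 0.24 (edgeR adjusted p = 0.37). Without HFD replicate 3 or 4, the libraries with the highest Trp53, it was 0.031 and 0.030.

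Mdm2 (ENSMUSG00000020184, chr10:117688875-117710758, minus strand) encodes the ligase that marks p53 for degradation. It had 40.2, 32.7, 28.9 and 27.3 CPM in HFD and 26.98, 29.4, 31.0 and 34.1 CPM in CF. HFD replicate 1 was the highest of the 8, the reverse of its place for Trp53, and the other HFD values fell within the CF range. The log2 fold change was 0.09 with a 95% interval of -0.23 to 0.41 (SE 0.14, edgeR adjusted p = 0.94), and it was -0.035 without HFD replicate 1. Per kilobase of exon, Trp53 was at 9.35 ± 1.36 CPM and Mdm2 at 6.16 ± 0.86 CPM over the 8 libraries (SD, n = 8).

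Cdkn1a (ENSMUSG00000023067, chr17:29090976-29100727, plus strand) encodes p21, the inhibitor of cyclin-dependent kinases through which p53 halts the cell cycle, and is a widely used readout of p53. A p53 response element upstream of the gene is long known. A stretch of the promoter is printed here because only this 1 of the 9 member windows held a pair of p53 half-sites. RefSeq start windows (250 bases before to 50 after a start, GRCm38.p6) were on hand for 6 of the 9 genes, in 9 windows, and not for Pmaip1, Zmat3 and Trp53inp1. The 250 bases before the upstream Cdkn1a start, chr17:29090729-29090978 on the plus strand, are given 5′ to 3′ with p53 half-sites in capitals.
Cdkn1a: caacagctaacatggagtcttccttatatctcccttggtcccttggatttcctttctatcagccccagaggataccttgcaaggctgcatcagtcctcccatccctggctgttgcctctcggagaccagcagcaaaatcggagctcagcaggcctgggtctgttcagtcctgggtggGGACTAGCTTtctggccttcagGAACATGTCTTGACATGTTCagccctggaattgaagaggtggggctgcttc
The longer run of capitals is an adjacent pair of half-sites, 51 to 32 bases before this start and 2841 bases before the other RefSeq start of Cdkn1a, with 1 mismatch to the p53 half-site consensus and no spacer. The shorter run begins 73 bases before the start and is an exact half-site. With the leading half-site of the longer run it forms another pair, from 73 to 42 bases before the start, with 0 mismatches and a spacer of 12 bases. Such a pair (both strands, at most 1 mismatch and a spacer of at most 13 bases) was in 1 of the 9 member windows and in 0.627% of 32851 RefSeq windows of the same length, and a pair with 0 mismatches in the same 1 window and in 0.073% of all. A single exact half-site was in 4 of 9 member windows and 8.36% of all windows, and the letters ACATGT, which hold 1 form of the half-site's central bases, in 2 of 9, those of Cdkn1a and Phlda3, and 5.28% of all. A match describes the letters and was not tested as a binding site.

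In the CDPs Cdkn1a had 3.95, 5.10, 13.3 and 8.86 CPM in HFD and 8.04, 7.44, 6.86 and 7.88 CPM in CF, from 123 to 507 counts per library. The CF libraries were nearly alike, whereas HFD replicates 1 and 2 lay below all of them and HFD replicates 3 and 4 above. The means were 7.80 ± 4.22 CPM in HFD and 7.55 ± 0.52 CPM in CF (SD, n = 4 each), a log2 fold change of 0.05 with a wide 95% interval of -0.73 to 0.83 (SE 0.34, edgeR adjusted p = 0.99). Its sign rested on single libraries, with -0.34 without HFD replicate 3 and -0.056 without HFD replicate 4, against 0.27 without HFD replicate 1 and 0.21 without HFD replicate 2. The pooled within-group SD of Cdkn1a was 0.56 on the log2 scale, where the median of 792 genes of like level was 0.28 and Cdkn1a stood at the 86.6th percentile. The deposited counts may take in reads of AC167363.2, which runs on the opposite strand and shares 273 exon bases (7.68% of the Cdkn1a exons), since whether counting used strand is not given in the sources used here.

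Trp53inp1 (ENSMUSG00000028211, chr4:11156431-11174379, plus strand), whose stress-induced protein promotes p53-dependent death and autophagy, had the same shape of spread. Its values were 86.6, 37.6, 58.1 and 38.2 CPM in HFD and 54.7, 47.8, 49.3 and 51.0 CPM in CF. HFD replicates 1 and 3 lay above the CF range and HFD replicates 2 and 4 below it. The log2 fold change was 0.12 with a 95% interval of -0.46 to 0.70 (SE 0.25, edgeR adjusted p = 0.96), and -0.18 without HFD replicate 1. On the log2 scale its SD was 0.57 in HFD and 0.083 in CF. Over the set, 7 of 9 genes had the larger log2 SD in HFD, and so had 67.2% of all genes tested. Without HFD replicate 1 it was again 7 of 9, against 52.2% of all genes.

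Phlda3 (ENSMUSG00000041801, chr1:135766119-135769136, plus strand) encodes a repressor of the kinase Akt. It showed the largest difference of the 9, but from 18 to 94 counts per library. The CPM were 0.61, 0.85, 1.57 and 2.28 in HFD and 1.45, 0.57, 0.57 and 0.91 in CF. HFD replicates 3 and 4 lay above every CF library and HFD replicates 1 and 2 within the CF range, which CF replicate 1 alone extended upward. The log2 fold change was 0.60 with a 95% interval of -0.51 to 1.71 (SE 0.49, edgeR adjusted p = 0.84), so a rise of up to 3.28-fold lay within the interval. With HFD replicate 1 and CF replicate 1 both left out, a setting chosen after seeing the data, it was 1.19 (edgeR adjusted p = 0.23). With single libraries left out it ran from 0.17 without HFD replicate 4 to 0.96 without CF replicate 1.

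Zmat3 (ENSMUSG00000027663, chr3:32334792-32366014, minus strand), an RNA-binding zinc finger protein that acts on splicing downstream of p53, varied least for its level. It had 3.02, 3.49, 2.99 and 3.91 CPM in HFD and 3.23, 3.72, 3.18 and 2.68 CPM in CF, with the libraries of both diets interleaved. The log2 fold change was 0.07 with a 95% interval of -0.34 to 0.47 (SE 0.18, edgeR adjusted p = 0.97), and it turned to -0.055 without HFD replicate 4 and to -0.010 without CF replicate 4. Its within-group SD of 0.19 on the log2 scale stood at the 6.94th percentile of 792 genes of like level, whose median was 0.37.

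The remaining members are the p53 targets of the Bcl-2 family, which act at the mitochondrion in apoptosis. Bax (ENSMUSG00000003873, chr7:45461697-45466898, minus strand), a protein that permeabilises the outer membrane, had 6.90, 5.73, 5.61 and 8.20 CPM in HFD and 5.09, 6.93, 8.03 and 7.33 CPM in CF. The ranges covered each other almost fully, with a log2 fold change of -0.05 and a 95% interval of -0.49 to 0.39 (edgeR adjusted p = 0.98). Its sign changed when HFD replicate 2, HFD replicate 3 or CF replicate 3 was left out, with values of 0.013, 0.022 and 0.036. Bax shares 192 exon bases (12.18% of its exons) with Gm45808 on the same strand, so its counts are uncertain in that part.

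Bbc3 (ENSMUSG00000002083, chr7:16308393-16318205, plus strand) encodes Puma, a BH3-only protein that frees Bax from its inhibitors. It had 2.15, 0.76, 1.29 and 1.38 CPM in HFD and 1.32, 1.27, 0.98 and 1.09 CPM in CF, from 24 to 67 counts per library. HFD held both extremes, with replicate 1 the highest and replicate 2 the lowest of the 8. The log2 fold change of 0.26 (95% interval -0.49 to 1.01, edgeR adjusted p = 0.92) became -0.024 without HFD replicate 1.

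Pmaip1 (ENSMUSG00000024521, chr18:66458533-66465565, plus strand) encodes Noxa, the BH3-only protein that neutralises Mcl1. It had the lowest p of the 9 and was the member furthest toward lower values in HFD. It had 5.91, 6.54, 4.09 and 6.89 CPM in HFD and 6.85, 8.27, 7.75 and 6.60 CPM in CF. HFD replicates 1 to 3 lay below all CF libraries, and HFD replicate 4 lay above CF replicates 1 and 4. The means were 5.86 ± 1.25 CPM in HFD and 7.37 ± 0.78 CPM in CF (SD, n = 4 each), a log2 fold change of -0.33 with a 95% interval of -0.75 to 0.09 (SE 0.19, edgeR adjusted p = 0.74). It lay lower in HFD under all 19 alternatives tried, at -0.46 to -0.13.

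**Figure D2:**
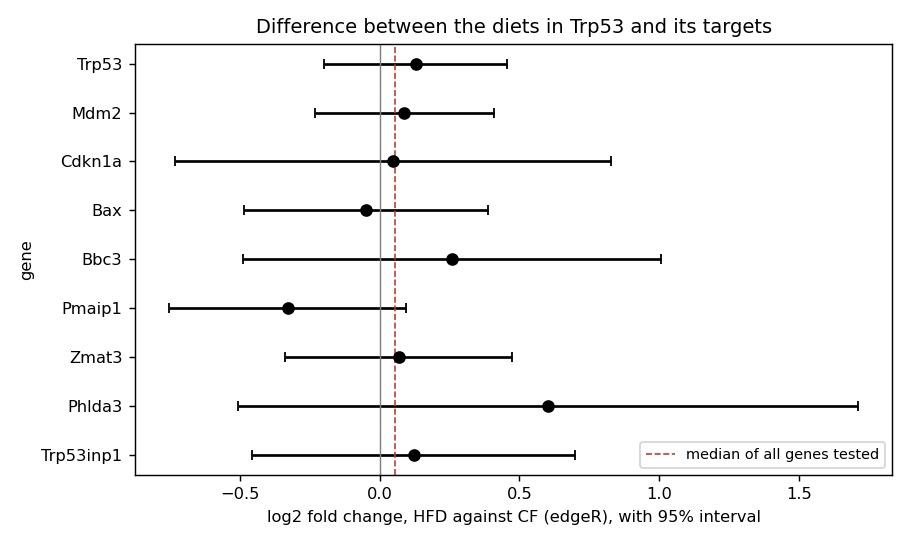
Log2 fold change of HFD against CF in edgeR for the 9 genes (horizontal axis), with points for the estimate, bars for the 95% interval and a dashed line at the median of all genes tested, 0.055. Every interval crosses 0, and the intervals are widest for Phlda3, Cdkn1a and Bbc3.

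Per kilobase of exon, the level over the 8 libraries fell from Trp53 at 9.35 CPM (7.45 to 11.7) through Trp53inp1 at 8.17 CPM (5.81 to 13.4) to Mdm2 at 6.16 CPM (5.31 to 7.90). Bax followed at 4.27 CPM (3.23 to 5.20), and its range did not reach that of Mdm2. Pmaip1 at 2.42 CPM (1.498 to 3.03) and Cdkn1a at 2.16 CPM (1.11 to 3.74) overlapped each other and lay below Bax by mean. Phlda3 at 0.71 CPM (0.36 to 1.46) and Bbc3 at 0.60 CPM (0.36 to 1.01) overlapped, and Zmat3 was lowest at 0.29 CPM (0.23 to 0.34). Between neighbours in this order, the ranges were apart for Mdm2 and Bax, for Bax and Pmaip1 and for Bbc3 and Zmat3, and overlapped in the other 5 pairs.

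Among 11766 protein-coding genes outside the set, the genes whose log2 CPM followed Trp53 most closely over the 8 libraries were Tmem121 (Pearson r = 0.99, Spearman rho = 0.95), Polr3k (r = 0.98, rho = 0.95) and Pdrg1 (r = 0.98, rho = 0.93). For Cdkn1a they were Ddx54 (r = 0.99, rho = 0.98), Pomgnt2 (r = 0.99, rho = 0.93) and Zc3h7b (r = 0.98, rho = 1.00). These are the highest of many correlations over 8 points that share their libraries and scaling, and are given as a description.

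The wider pathway was read from a list of 62 further p53 genes, of which 54 were in the count table and all 54 were tested. In HFD 32 of them lay higher and 22 lower, with a median log2 fold change of 0.068, beside 9447 higher and 6390 lower of all 15837 genes tested. Of the 54, 0 passed the adjusted threshold in edgeR, against 0.423% of all genes, 4 had an unadjusted p under 0.05, against 8.56% of all genes, and 1 had non-overlapping groups, against 6.16%. Cdkn2a, Trp63, Trp73, Rprm, Perp, Eda2r, Gls2 and Gdf15 had no row in the table.

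By role, the 17 regulators of p53 had 11 higher and 6 lower in HFD with a median of 0.078, and the 6 DNA repair targets had 5 higher and 1 lower with a median of 0.10. The 11 growth arrest targets had 5 higher and 6 lower (median -0.071), the 8 cell death targets 4 and 4 (median -0.011), and the 12 targets in metabolism and other functions 7 and 5 (median 0.16). Chek1, the checkpoint kinase that relays replication stress, had the lowest p of the list, with 15.4, 17.2, 18.8 and 21.6 CPM in HFD against 14.1, 16.1, 13.6 and 11.1 CPM in CF and a log2 fold change of 0.41 ± 0.15 (SE, edgeR adjusted p = 0.42). Ppm1d, the p53-induced phosphatase that switches the response off, was the gene whose groups did not overlap, with 13.4 to 16.1 CPM in HFD and 11.6 to 13.2 CPM in CF and a log2 difference of 0.25 ± 0.11 (SE, edgeR adjusted p = 0.54).

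Tnfaip8, a p53-regulated inhibitor of apoptosis, differed by 0.27 on the log2 scale (edgeR adjusted p = 0.53), and Polh, the polymerase that copies past ultraviolet lesions, at 0.26 (edgeR adjusted p = 0.67). Ccng1, cyclin G1, a p53 target that feeds back on Mdm2, had 42.3, 38.7, 34.7 and 45.6 CPM in HFD and 33.8, 38.6, 33.2 and 35.9 CPM in CF. Its log2 fold change was 0.19 with a 95% interval of -0.063 to 0.44 (SE 0.11, edgeR adjusted p = 0.76), and the groups overlapped. It was 0.083 without HFD replicate 4 and 0.37 under library size alone. Mdm4, the Mdm2 relative that masks the activation domain of p53, was at -0.010 (edgeR adjusted p = 0.997). Plk2, a polo-like kinase, was the gene of the list that lay furthest lower in HFD, at -2.003 ± 0.81 (SE, edgeR adjusted p = 0.51), from 3 to 102 counts per library.

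Leaving out HFD replicate 1 changed the calls in the wider pathway. The 9 genes still had 0 calls in edgeR, where 1.26% of 15863 genes were called, and 0 of 9 had an unadjusted p under 0.05, against 14.6% of all genes. In the 54 further pathway genes 2 were called, both lower in HFD, as were 166 of all 200 genes called in this fit. With all 8 libraries, all 67 genes called were lower in HFD. These were Btg2, an antiproliferative gene, at -1.42 ± 0.17 (SE, edgeR adjusted p = 0.016), and Gadd45a, a stress sensor that acts in p38 signalling and binds PCNA, at -1.69 ± 0.25 (SE, edgeR adjusted p = 0.022). With HFD replicate 1 and CF replicate 1 both left out, the setting chosen after seeing the data, 2.45% of 15827 genes were called, and among the pathway genes Plk2 (-3.44, edgeR adjusted p = 0.034), Plk3 (-2.02, edgeR adjusted p = 0.041) and Fas (-1.74, edgeR adjusted p = 0.049) passed as well, while the 9 genes again had 0 calls. With all 8 libraries the values were -0.68 for Btg2, -0.53 for Gadd45a, -0.18 for Plk3 and -0.12 for Fas, with edgeR adjusted p of 0.80 to 0.99.

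**Figure D3:**
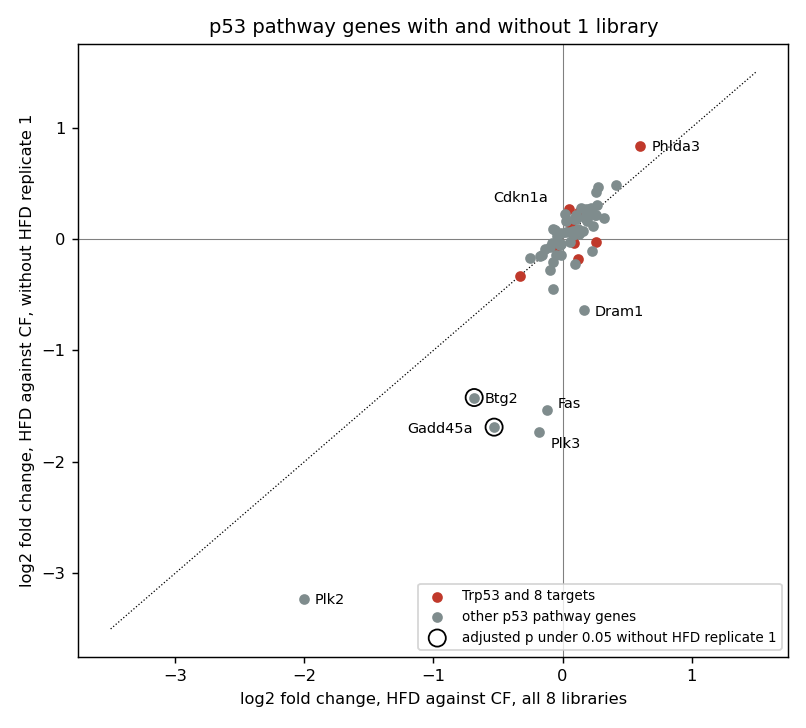
Log2 fold change of HFD against CF for the 9 genes (red) and the 54 other p53 pathway genes (grey) in edgeR with all 8 libraries (horizontal axis) and without HFD replicate 1 (vertical axis), with the dotted line where both are equal. Among the 9 genes Mdm2, Bbc3 and Trp53inp1 change sign, Plk2, Plk3, Fas, Gadd45a, Dram1 and Btg2 lie furthest below the line, and the 2 circled genes had an adjusted p under 0.05 without that library.

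Btg2, Gadd45a, Plk3, Fas and Dram1 were picked out after their values were seen. Btg2 had 115, 32.2, 31.9 and 29.6 CPM in HFD and 62.1, 93.8, 102 and 77.1 CPM in CF. Gadd45a had 19.4, 4.03, 3.41 and 2.38 CPM in HFD and 7.34, 11.7, 10.8 and 12.3 CPM in CF. Each of the 2 was highest of all in HFD replicate 1 and lower in HFD replicates 2 to 4 than in any CF library, with CF replicate 1 the lowest of the CF libraries.

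Plk2 had 1.35, 0.44, 0.079 and 0.12 CPM in HFD and 1.03, 2.32, 3.21 and 1.30 CPM in CF. Fas, the death receptor, had 4.88, 0.94, 0.50 and 0.46 CPM in HFD and 1.01, 2.00, 2.30 and 2.03 CPM in CF, and Plk3 had 6.55, 0.44, 1.13 and 0.63 CPM in HFD and 0.88, 2.86, 3.84 and 2.29 CPM in CF. Fas and Plk3 were highest in HFD replicate 1, and HFD replicates 2 to 4 lay below CF replicates 2 to 4 for all 3 genes. Dram1, a p53 target in autophagy, had 17.8, 6.45, 3.65 and 3.23 CPM in HFD and 4.16, 9.29, 6.46 and 7.77 CPM in CF. It was likewise highest in HFD replicate 1 and, among CF, lowest in CF replicate 1, and its log2 fold change went from 0.17 with all 8 libraries to -0.64 without HFD replicate 1 (edgeR adjusted p = 0.41). Besides p53, Btg2, Gadd45a, Plk2 and Plk3 are known to respond within minutes to hours to growth factors, cytokines and stress.

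The summed neutrophil markers were likewise highest in HFD replicate 1 and, of the CF libraries, lowest in CF replicate 1. In HFD replicates 2 to 4 they were at 921 to 3501 CPM and in CF replicates 2 to 4 at 5714 to 6346 CPM. The order was not the same throughout. For these sums CF replicate 1, at 1868 CPM, lay below HFD replicate 2, at 3501 CPM. For Btg2, Gadd45a, Plk2 and Fas CF replicate 1 lay above HFD replicates 2 to 4. For Dram1 CF replicate 1 lay below HFD replicate 2, as in these sums. For Plk3 CF replicate 1 lay above HFD replicates 2 and 4 and below HFD replicate 3. None of the 10 neutrophil markers was at 0 in any library, and their part in the result was not tested beyond a fit with the neutrophil score as covariate, in which 4.07% of all genes were called and, of the 54 pathway genes, 1, Plk2 at -2.17 (edgeR adjusted p = 0.012), and 0 of the 9.

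**Figure D4:**
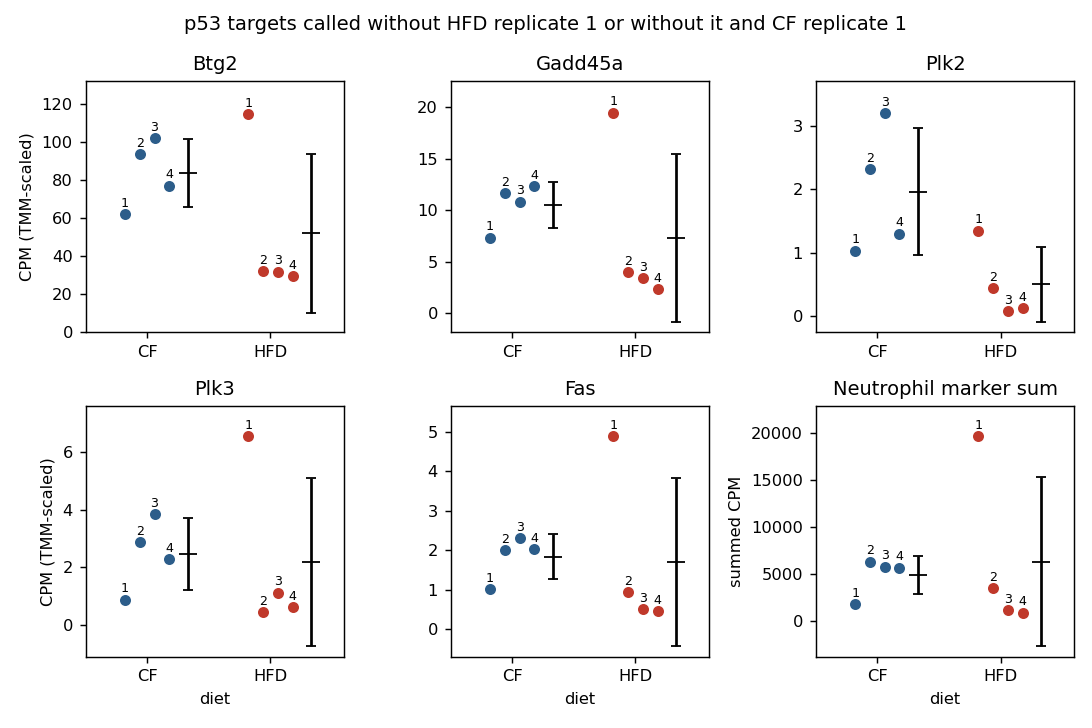
CPM (TMM-scaled) of Btg2, Gadd45a, Plk2, Plk3 and Fas, and the summed CPM of 10 neutrophil markers, in each library, with points numbered by replicate for CF (blue) and HFD (red) and bars for the mean ± SD. HFD replicate 1 lies above HFD replicates 2 to 4 in every panel, at 115 against 29.6 to 32.2 CPM for Btg2 and at 19740 against 921 to 3501 CPM for the neutrophil markers.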

How the data were processed

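The values analysed were raw counts for each gene, as deposited by the authors. In the methods, reads of NuGEN Ovation Solo libraries were aligned with HISAT2, and uniquely mapped pairs were counted with StringTie on GENCODE genes. The submitters' processing notes also list FastQC, cutadapt and GRCm38. Tool versions, the annotation release and use of strand are not given in the sources used here. Each column carries a sample number that assigns it to a replicate.

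Genes were named and placed by Ensembl identifier in GENCODE vM21. Counts were fitted in R 4.3.3 with edgeR 4.0.16 (filterByExpr, TMM, robust quasi-likelihood test with diet as the only term, Benjamini-Hochberg over all 15837 genes tested, threshold 0.05). Log2 CPM used a prior count of 2. Intervals are 95%. Promoter windows and their sequence came from RefSeq.

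The 9 genes and all lists were chosen with earlier results of these data known. Named genes were the 9, pathway genes called, the 6 pathway genes with the lowest p, the 3 genes most like Trp53 and like Cdkn1a, and those named after their values were seen, including Mdm4.

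The fit was repeated with library size alone, with RLE size factors, in DESeq2 1.42.0, in limma 3.58.1 with voom, and with a linear model on log2(CPM + 1), no filter, 1 CPM in 4 libraries, protein-coding genes alone, a neutrophil score as covariate, the replicate number as a block, each library left out, and, chosen after seeing the data, HFD replicate 1 and CF replicate 1 both left out. The fits were tested on simulated data, and no result given here rests on that test. Figures used Python 3.11.15 and matplotlib 3.10.9.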

Additional observations from a re-analysis of the deposited data

Results flagged for a closer look

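In 70 groups of 4 libraries looked at, over the 9 genes, the other genes named from the pathway and the gene lists, 8 had a library far from the other 3, by the gap to its nearest neighbour over the whole range (Dixon's 95% limit). Chance alone flags about 1 in 20 such groups, and several of the genes were named because of their spread. HFD replicate 1 was the library that stood apart in 7 of the 8. Against the other HFD libraries it had 115 CPM of Btg2 (29.6 to 32.2 elsewhere), 19.4 CPM of Gadd45a (2.38 to 4.03), 6.55 CPM of Plk3 (0.44 to 1.13) and 4.88 CPM of Fas (0.46 to 0.94). The growth arrest targets, a list that holds Btg2, Gadd45a and Plk3, summed to 258 CPM in it, against 147 to 155. The neutrophil markers summed to 19740 CPM in HFD replicate 1, against 921 to 3501, and the erythroid markers to 399 CPM, against 80.5 to 122. In CF replicate 1 the neutrophil markers summed to 1868 CPM, against 5714 to 6346 in the other CF libraries. None of the 9 genes was among the 8.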

How the results depend on the processing

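Of the 9 genes, 0 were called under all 19 alternatives, with adjusted p of at least 0.23 in edgeR, DESeq2 or limma. The number of all genes called was 67 in the reported fit and 0 to 645 under the alternatives, with 567 in DESeq2, 645 with the neutrophil covariate and 0 with protein-coding genes alone, the linear model or the replicate block. With 1 library left out it was 200 without HFD replicate 1, 154 without CF replicate 4, 2 without HFD replicate 4, 1 without HFD replicate 2 and 0 without HFD replicate 3 or CF replicate 1, 2 or 3. The median log2 fold change of the 9 was 0.28 under library size alone, beside 0.25 over all genes, and Bax reversed there, to 0.12. In that setting Chek1 was at 0.63, Polh at 0.46 and Ppm1d and Tnfaip8 at 0.45. Of the pathway genes, 10 then had an unadjusted p under 0.05 in edgeR, against 4 in the reported fit, and 0 were called. Cdkn1a reversed under limma voom (-0.074), the linear model (-0.081), the neutrophil covariate (-0.26) and the replicate block (-0.11). With each library left out in turn the median of the 9 lay at -0.024 (without HFD replicate 1, a change of sign) to 0.16, Trp53 at 0.030 to 0.24, Phlda3 at 0.17 to 0.96, Pmaip1 at -0.46 to -0.19, Mdm2 at -0.035 to 0.15, Cdkn1a at -0.34 to 0.27, Bax at -0.21 to 0.036, Bbc3 at -0.024 to 0.46, Zmat3 at -0.055 to 0.15 and Trp53inp1 at -0.18 to 0.27. The pathway genes called numbered 0 to 2 with each library left out in turn, 1 with the neutrophil covariate and 5 with HFD replicate 1 and CF replicate 1 both left out, where Mdm2 (-0.088) and Trp53inp1 (-0.15) also reversed. The cause of these reversals was not tested.

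Same-numbered libraries of the diets did not vary together (correlations of -0.44 to -0.078, and 0 of 4 HFD libraries correlated best with their own number), so the replicate block describes no known pairing. Bbc3, with 24 to 67 counts per library, and Phlda3, with 18 to 94, had the fewest counts of the 9.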

Other observations

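Ptp4a3, a phosphatase listed among the p53 targets in metabolism and other functions, was picked out after its values were seen. It had 33.6, 53.4, 77.1 and 76.4 CPM in HFD and 53.5, 49.8, 48.1 and 47.7 CPM in CF, so that HFD replicate 1 was the lowest of the 8 libraries and HFD replicates 3 and 4 the highest. Its log2 fold change was 0.27 with all libraries (edgeR adjusted p = 0.85) and 0.47 without HFD replicate 1 (edgeR adjusted p = 0.15). Sesn2, whose protein links stress to the TOR pathway, had 10.3, 5.19, 3.91 and 4.88 CPM in HFD and 3.41, 7.63, 8.50 and 5.98 CPM in CF, highest in HFD replicate 1 and lowest in CF replicate 1, and the diets differed by -0.071 on the log2 scale (edgeR adjusted p = 0.98), by -0.45 without HFD replicate 1 (edgeR adjusted p = 0.52), and by -0.66 without HFD replicate 1 and CF replicate 1 (edgeR adjusted p = 0.16).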
